A study of Mus musculus with 2 samples.

Results

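The epithelial miRNAs described here are 10 genes of 5 loci, Mir200b, Mir200a and Mir429, Mir200c and Mir141, Mir183, Mir96 and Mir182, Mir203, and Mir205. They were chosen by name from the 1973 miRNA genes of the count tables, and all 10 had an entry. The rule holds no expression value, but the choice was made with earlier results of these data known. The tissue was heart of B6NCrl mouse embryos aged 14.5 days, profiled by small RNA sequencing, and the labels name no treatment and no altered gene. There was 1 group of 2 libraries, replicate 1 (collected on 15 July 2014) and replicate 2 (17 July 2014), which the labels count as separate biological replicates. The labels describe each library as a single heart and also give the sex as pooled, and they do not settle which applies. Both labels name pup 1 of pregnant 2 and the same donor entry. Yet 1 litter could not be aged 14.5 days on both collection days, so the labels conflict on the litter. Any SD over the 2 libraries may be partly technical. No group served as a control, so the values give the level of each miRNA in embryonic heart and the spread between these 2 libraries, which includes the collection day.

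miRNAs are short RNAs cut from hairpins in longer primary transcripts, and several hairpins often lie in 1 transcript. A mature miRNA pairs with mRNAs mainly through its seed, the bases just after its 5′ end, and lowers the stability and translation of its targets. The miR-200 family is known for keeping epithelial cells epithelial by repressing the transcription factors Zeb1 and Zeb2, which in turn repress both miR-200 loci. The miR-183 cluster is best known from sensory cells of the retina, inner ear and olfactory system and is also found in epithelia. miR-203 promotes differentiation of the upper epidermis, and miR-205 is enriched in the basal and progenitor cells of stratified and glandular epithelia and also targets Zeb1 and Zeb2. None of the 10 belongs to the miRNAs known for heart muscle.

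The mature sequences show why the 10 genes fall into 7 seed groups that do not match their 5 loci. For each gene the arm generally regarded as its main product is printed 5′ to 3′, with the seed (bases 2 to 8) in capitals. Sequences are from RefSeq (GRCm38.p6, the same assembly as mm10), which held all 10. The deposited counts are per hairpin gene, so the 2 arms of a hairpin are not separated in any value below.
miR-200b-3p: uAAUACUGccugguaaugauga
miR-200c-3p: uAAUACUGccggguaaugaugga
miR-429-3p: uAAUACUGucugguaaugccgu
miR-200a-3p: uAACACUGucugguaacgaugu
miR-141-3p: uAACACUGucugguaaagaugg
miR-183-5p: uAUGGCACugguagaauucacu
miR-96-5p: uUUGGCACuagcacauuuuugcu
miR-182-5p: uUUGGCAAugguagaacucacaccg
miR-203-3p: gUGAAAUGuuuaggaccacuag
miR-205-5p: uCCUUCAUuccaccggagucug

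Within the miR-200 family both loci make both seeds. miR-200b, miR-429 and miR-200c share AAUACUG, and miR-200a and miR-141 share AACACUG. Counting positions from 1 at the 5′ end, and writing the base of the miRNA named first before the position, miR-200b and miR-200a differ within the seed by U4C alone. miR-200b and miR-200c differ by U11G and A22G, and miR-200a and miR-141 by C17A and U22G, all outside the seed. The 3 miRNAs of the miR-183 cluster have similar but separate seeds. In the seed miR-182 and miR-96 differ by A8C, and miR-183 and miR-96 by A2U. Among the annotated mature miRNAs of RefSeq, 1 non-member shares a seed with a member, miR-1271-5p with miR-96-5p, and it was not analysed here. The longest stretch that a printed arm shares with the hairpin of another gene is 16 bases, between miR-200a and miR-141, and it is 9 to 12 bases for the other 8.

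Replicate 1 held 4327424 counts assigned to miRNA genes and replicate 2 held 3839984, and levels are given as CPM, each count divided by its library's total and multiplied by 1000000. How evenly different miRNAs were captured and copied was not measured, so comparisons between miRNAs below are of reads, not of molecules. At these depths a count of 0 allows up to 3 counts, which is 0.693 CPM and 0.781 CPM. Reads that mapped to several places, 30.6% and 30.1% of all reads, are not in the gene counts. Heart muscle markers were present, with Mir208b at 66314 and 66822 CPM, Mir208a at 6542 and 9382 CPM and Mir499 at 2896 and 3149 CPM in replicates 1 and 2. The other measured members of that list were near the floor, with 13 and 10 counts of Mir1a-1, 12 in each library of Mir133a-1 and 2 and 5 of Mir133a-2. The hairpin of each of these 3 shares a stretch of 20 bases with another annotated hairpin, so their reads can fall among those mapping to several places, whereas none of the 10 epithelial hairpins shares such a stretch. Intervals below are exact, at 95%, and describe the counting of reads alone, not the variation between animals or libraries. No molecular identifiers were used to tell molecules from copies, so the intervals can be too narrow even for counting error.

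All 10 epithelial miRNAs reached 10 counts or more in both libraries, the rule for calling a gene detected, against 17.1% of all 1973 genes (337 genes). Together they reached 753 CPM in replicate 1 and 1339 CPM in replicate 2, or 1046 ± 414 CPM (SD, n = 2). Mir208b alone lay 88.0 times above their sum in replicate 1 and 49.9 times above it in replicate 2. By mean level they ranked between place 109 (Mir429) and place 273 (Mir141) among all genes. The epithelial miRNAs were thus measurable but a minor part of the reads in this tissue. Which cells they came from was not measured. In whole tissue the number of such cells and the RNA per cell cannot be told apart.

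The Mir200b, Mir200a and Mir429 hairpins gave the largest part of the sum. They lie within 1.7 kb of each other on the minus strand of chromosome 4 (mm10), Mir200b at 156055681 to 156055750, Mir200a at 156054896 to 156054985 and Mir429 at 156053905 to 156053987. In the GENCODE M21 annotation all 3 lie in introns of Ttll10, a protein-coding gene on the same strand, and Mir429 also overlaps an exon of the non-coding transcript Gm13648. Mir429 had the most reads of the epithelial miRNAs in both libraries, with 1263 counts (292 CPM, interval 276 to 308) in replicate 1 and 1807 (471 CPM, 449 to 493) in replicate 2. Mir200b had 373 counts (86.2 CPM, 77.7 to 95.4) and 571 counts (149 CPM, 137 to 161). Mir200a had 65 counts (15.0 CPM, 11.6 to 19.1) and 119 counts (31.0 CPM, 25.7 to 37.1). All 3 were higher in replicate 2, with intervals that did not overlap between the libraries, and the order Mir429, Mir200b, Mir200a was the same in both.

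The other miR-200 locus was lower. Mir200c (chromosome 6, minus strand, 124718322 to 124718390) and Mir141 (124717914 to 124717985) lie 336 bases apart, both in an intron of the non-coding gene Gm15884, and Mir141 also overlaps an exon of Gm29008. Mir200c had 153 counts (35.4 CPM, 30.0 to 41.4) in replicate 1 and 456 (118.7 CPM, 108 to 130) in replicate 2. Mir141 had 20 counts (4.62 CPM, 2.82 to 7.14) and 64 counts (16.7 CPM, 12.8 to 21.3), the lowest of the 10 in both libraries. Both genes were higher in replicate 2 without overlap of the counting intervals.

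The Mir183, Mir96 and Mir182 hairpins lie on the minus strand of chromosome 6 outside other genes of GENCODE M21, Mir183 at 30169668 to 30169737, Mir96 at 30169446 to 30169551 and Mir182 at 30165918 to 30165992. Mir182 had 203 counts (46.9 CPM, 40.7 to 53.8) in replicate 1 and 385 (100.3 CPM, 90.5 to 111) in replicate 2. Mir183 had 118 counts (27.3 CPM, 22.6 to 32.7) and 257 counts (66.9 CPM, 59.0 to 75.6). Mir96 had 52 counts (12.0 CPM, 8.97 to 15.8) and 113 counts (29.4 CPM, 24.3 to 35.4). Mir96 was the lowest of the cluster and Mir182 the highest in both libraries, and again replicate 2 was the higher one for each.

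The epidermal Mir203 and the basal-cell Mir205, each alone at its locus, differed in their spread between the libraries. Mir203 lies on the plus strand of chromosome 12 (112130880 to 112130955) outside other genes of GENCODE M21, while RefSeq places Gm51289, the gene of miR-203b, opposite it on the minus strand, and Mir205 lies on the minus strand of chromosome 1 (193507463 to 193507530) and overlaps an exon of the long non-coding gene 4631405K08Rik. Mir203 had 962 counts (222 CPM, 208 to 237) in replicate 1 and 1009 (263 CPM, 247 to 279) in replicate 2. Mir205 had 51 counts (11.8 CPM, 8.77 to 15.5) and 360 counts (93.8 CPM, 84.3 to 104). Mir203 had the smallest ratio between the libraries of the 10, at 243 ± 28.6 CPM (SD, n = 2), while for Mir205 the SD exceeded the mean, at 52.8 ± 58.0 CPM.

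**Figure D1:**
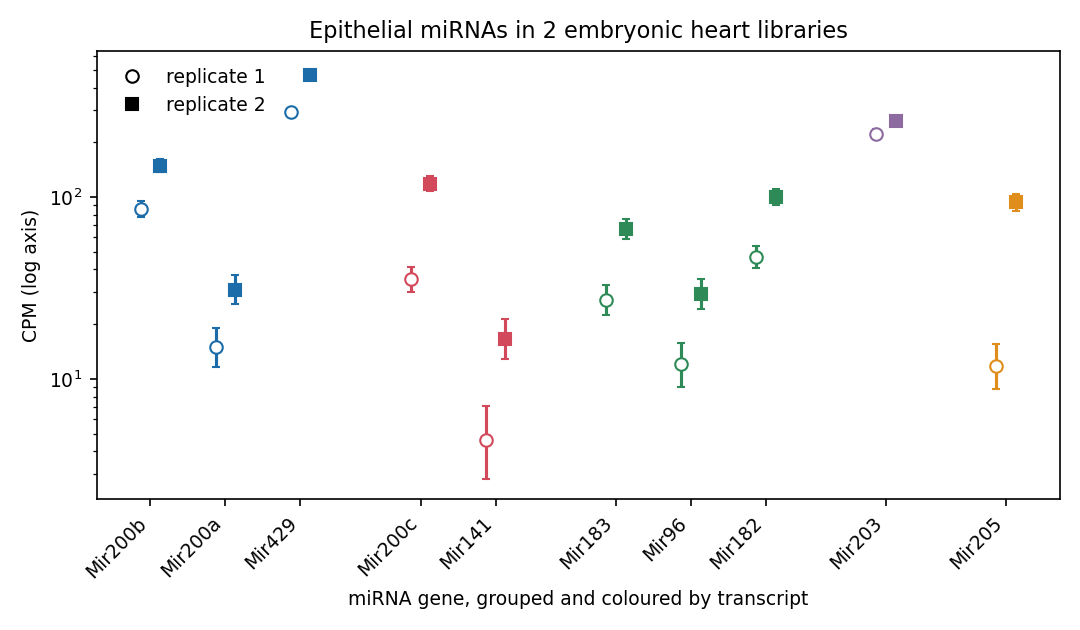
Level of each epithelial miRNA in CPM (log axis) in replicate 1 (open circles) and replicate 2 (filled squares), grouped and coloured by transcript, with exact 95% counting intervals as bars. Replicate 2 lies above replicate 1 for all 10 genes, narrowly for Mir203 (222 and 263 CPM) and widely for Mir205 (11.8 and 93.8 CPM).

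The order of the levels was fixed at its top and changed further down. Mir429, Mir203 and Mir200b held places 1, 2 and 3 in both libraries, with counting intervals apart from each other. In replicate 1 they were followed by Mir182, Mir200c, Mir183, Mir200a, Mir96, Mir205 and Mir141. In replicate 2 they were followed by Mir200c, Mir182, Mir205, Mir183, Mir200a, Mir96 and Mir141, so that Mir205 moved from place 9 to place 6. Several neighbours had overlapping counting intervals, which does not by itself show that their levels were equal, and their ratios were not computed. These were Mir182 and Mir200c (46.9 and 35.4 CPM with intervals that just overlap in replicate 1, and 100.3 and 118.7 CPM in replicate 2) and Mir200a and Mir96 (15.0 and 12.0 CPM, then 31.0 and 29.4 CPM). Mir200c and Mir183 overlapped in replicate 1 only, as did Mir96 and Mir205 (12.0 and 11.8 CPM), and Mir182 and Mir205 (100.3 and 93.8 CPM) overlapped in replicate 2 only. Taken over both libraries and ordered by mean, 7 of 9 neighbouring pairs had overlapping ranges, and the exceptions were Mir429 above Mir203 and Mir203 above Mir200b. These ranges include the rise of all 10 in replicate 2, so overlap does not leave the order within a library open. Within each library Mir200b lay above Mir200c, Mir183 above Mir200a and Mir96 above Mir141, with counting intervals apart.

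The 5 loci contributed unequally, and their shares of the summed epithelial counts shifted. The Mir200b, Mir200a and Mir429 locus held 52.2% (50.4 to 53.9) in replicate 1 and 48.6% (47.2 to 49.9) in replicate 2. Mir203 held 29.5% (27.9 to 31.1) and 19.6% (18.5 to 20.7). The Mir183 cluster held 11.4% (10.4 to 12.6) and 14.7% (13.7 to 15.7), Mir200c with Mir141 held 5.31% (4.56 to 6.13) and 10.1% (9.30 to 11.0), and Mir205 held 1.56% (1.17 to 2.05) and 7.00% (6.32 to 7.73). Shares of Mir203 and of the largest locus were thus lower in replicate 2, and those of the other 3 loci were higher, each without overlap of the counting intervals. Of the 585 CPM by which the sum was higher in replicate 2, 43.9% came from the Mir200b, Mir200a and Mir429 locus, 18.9% from the Mir183 cluster, 16.3% from Mir200c with Mir141, 14.0% from Mir205 and 6.91% from Mir203.

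**Figure D2:**
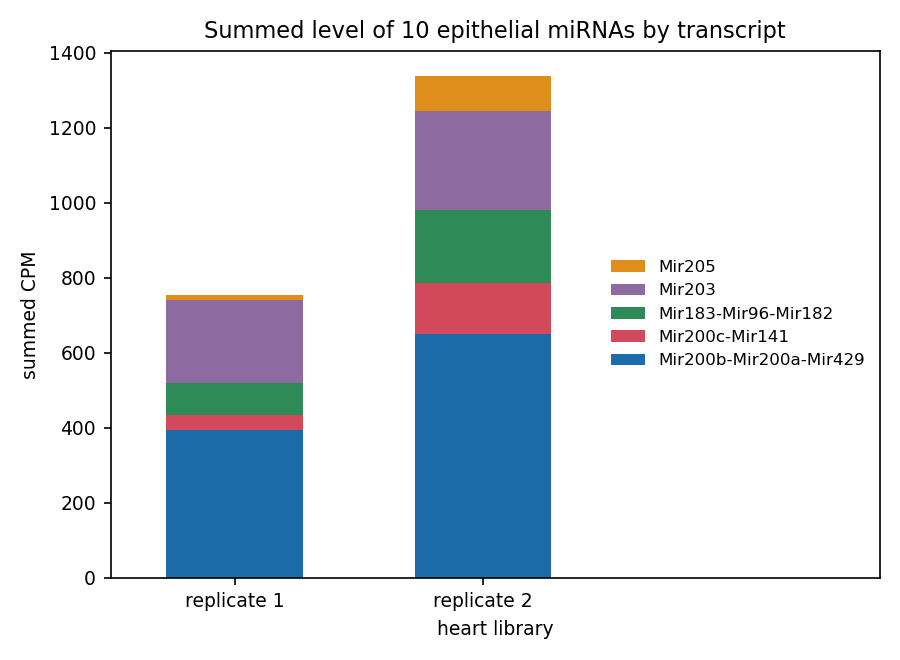
Summed CPM of the 10 epithelial miRNAs in each library (bars from 0), divided by transcript. The sum is 753 CPM in replicate 1 and 1339 CPM in replicate 2, and the Mir205 segment widens from 11.8 to 93.8 CPM while the Mir203 segment goes from 222 to 263 CPM.

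All 10 epithelial miRNAs were higher in replicate 2, against 59.6% of the 337 detected genes, and 7 of 10 were at least 2-fold higher, against 4.45% (15 genes) of the detected genes. For all 10 the lower counting bound of the ratio lay above 1, which held for 32.6% of the detected genes. The median difference in log2(CPM + 1) between replicate 2 and replicate 1 was 1.15 over the 10 and 0.08 over all detected genes. These are differences between 2 libraries of the same group with no replicate check and no test of significance. The 10 were also chosen with earlier results of these data known, so these counts are a description. Members of a shared transcript are also not independent, and counted by locus, the ratio was at least 2-fold for 3 of 5. The split over all genes depends on the scaling. With median-of-ratios size factors 44.5% of detected genes were higher in replicate 2 and their median difference was -0.03, a shift of the whole distribution, and all 10 members were still higher. Mir203 was then only 1.09-fold higher. The counting bounds were given for CPM and not recomputed, so a lower bound above 1 is not shown for Mir203 with this scaling. At least 2-fold higher were then 5 of 10 members and 2.97% of detected genes, since Mir200a came to 1.91-fold and Mir182 to 1.98-fold.

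The size of the ratio differed between the loci and was similar within each. In the Mir200b, Mir200a and Mir429 transcript the ratios of replicate 2 to replicate 1 were 1.73 (1.51 to 1.97), 2.06 (1.51 to 2.84) and 1.61 (1.4997 to 1.73). In the Mir200c and Mir141 transcript they were 3.36 (2.79 to 4.06) and 3.61 (2.15 to 6.29). In the Mir183 cluster they were 2.45 (1.97 to 3.08) for Mir183, 2.45 (1.75 to 3.47) for Mir96 and 2.14 (1.80 to 2.55) for Mir182. Within each transcript the intervals overlapped, and that of Mir200a also overlapped those of the Mir183 cluster. Summed by locus, the ratios were 1.18 (1.08 to 1.29) for Mir203, 1.65 (1.55 to 1.76) for the Mir200b locus, 2.28 (2.01 to 2.59) for the Mir183 cluster, 3.39 (2.85 to 4.05) for the Mir200c locus and 7.95 (5.92 to 10.9) for Mir205. No pair of these 5 counting intervals overlapped between these libraries. Mir205 had the largest ratio of all 337 detected genes, and 100 detected genes had a larger ratio than Mir203.

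**Figure D3:**
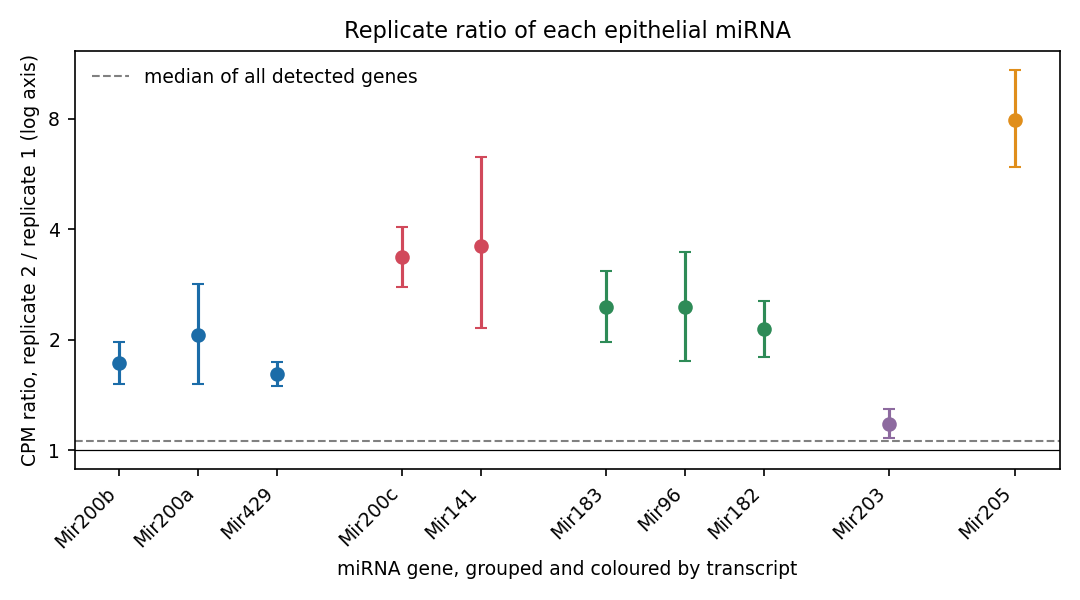
Ratio of CPM in replicate 2 to replicate 1 (log axis) for each epithelial miRNA, with exact 95% counting intervals, grouped and coloured by transcript. The dashed line is the median of all 337 detected genes (1.06). Ratios run from 1.18 for Mir203 to 7.95 for Mir205, and the interval of Mir200a overlaps those of the Mir183 cluster.

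The proportions among hairpins of a transcript were accordingly similar in both libraries. Mir429 stood 3.39 times (3.01 to 3.81) above Mir200b in replicate 1 and 3.16 times (2.88 to 3.48) in replicate 2, and 19.4 times (15.1 to 25.3) and 15.2 times (12.6 to 18.4) above Mir200a. Mir200c stood 7.65 times (4.78 to 12.9) and 7.12 times (5.48 to 9.41) above Mir141. Mir182 stood 1.72 times (1.36 to 2.18) and 1.498 times (1.28 to 1.76) above Mir183, and Mir183 stood 2.27 times above Mir96 in both (1.62 to 3.21 and 1.82 to 2.86). Between loci the proportions moved. Mir203 stood 18.9 times (14.2 to 25.5) above Mir205 in replicate 1 and 2.80 times (2.48 to 3.17) above it in replicate 2, and Mir200b stood 2.44 times (2.01 to 2.96) and 1.25 times (1.11 to 1.42) above Mir200c. The 7 pairs of members on 1 transcript differed in their log2 replicate difference by a median of 0.15 (lowest 0.04, highest 0.31). The 38 pairs on different transcripts differed by a median of 0.74 (lowest 0.08, highest 2.65). For comparison, all 324 pairs of detected genes within 10000 bases on 1 strand differed by a median of 0.26. These pairs reuse the same genes and the same 2 libraries, and are a description.

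Grouped by seed, the AAUACUG miRNAs (Mir200b, Mir200c and Mir429) had sums of 413 and 738 CPM in replicates 1 and 2. The AACACUG miRNAs (Mir200a and Mir141) summed to 19.6 and 47.7 CPM. In reads, the first seed therefore exceeded the second 21.05 times (16.9 to 26.5) in replicate 1 and 15.5 times (13.3 to 18.1) in replicate 2, although each locus holds hairpins of both. Mir429 gave 70.6% (68.4 to 72.7) and 63.8% (62.0 to 65.5) of the AAUACUG counts, Mir200b gave 20.8% (19.0 to 22.8) and 20.1% (18.7 to 21.7), and Mir200c gave 8.55% (7.30 to 9.95) and 16.1% (14.8 to 17.5). The share from the Mir200c locus was thus higher in replicate 2. For the AACACUG seed the share from Mir141 was 23.5% (15.0 to 33.97) in replicate 1 and 34.97% (28.1 to 42.4) in replicate 2, which overlapped.

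Few non-members reached the upper part of the members' range of replicate differences. The cut was the members' median log2 difference over these 2 libraries, which the lower-ranked members do not reach either. At or above it were 3 of 327 detected non-members. They were Mir137, a miRNA of neurons (57 and 329 counts, 6.50-fold, 4.90 to 8.78), Mir7b, of neuroendocrine cells (12 and 45 counts, 4.23-fold, 2.20 to 8.78), and Mir449a, of multiciliated epithelial cells (68 and 163 counts, 2.70-fold, 2.02 to 3.64). The 15 genes at least 2-fold higher in replicate 2 comprised 7 epithelial miRNAs and 8 others, among them the skeletal muscle miRNA Mir206 (68 and 131 counts, 2.17-fold) and the endocrine Mir375 (49 and 89 counts, 2.05-fold). Non-members nearest in mean level to a member varied in their difference. Mir302c, nearest to Mir205, had 51.8 and 54.7 CPM, and Mir185, nearest to Mir429, had 370 and 399 CPM. Mir376c, nearest to both Mir200c and Mir182, had 52.5 and 102.3 CPM, and Mir3072, nearest to Mir200a, had 15.3 and 29.9 CPM. Mir1981, nearest to Mir200b, was lower in replicate 2, at 128 and 106 CPM.

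**Figure D4:**
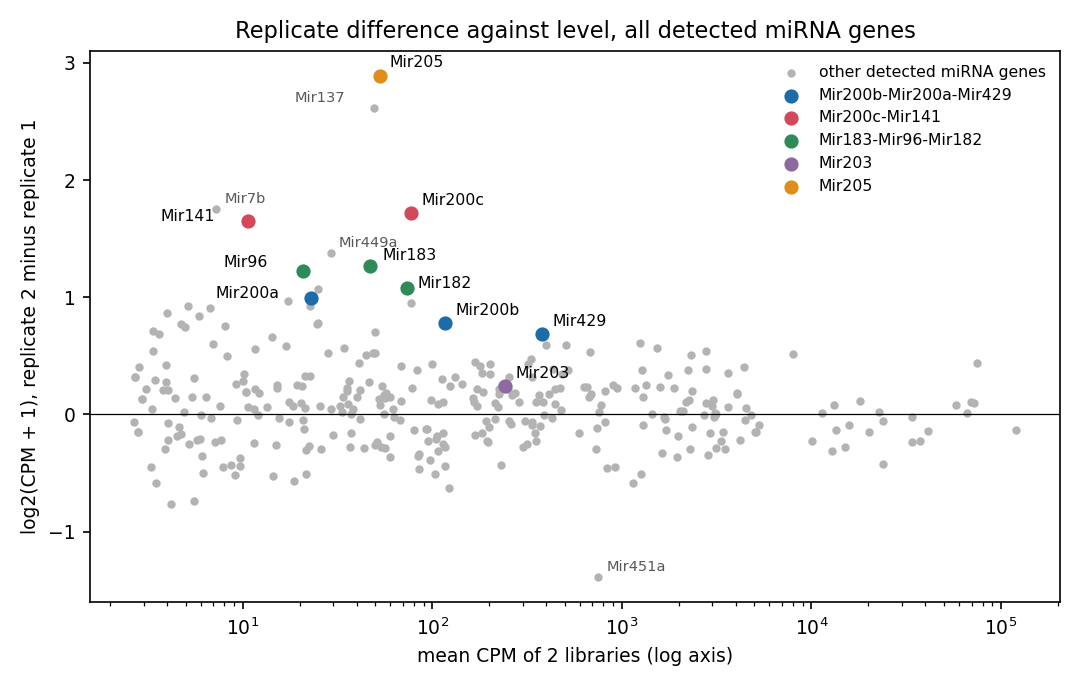
Difference in log2(CPM + 1), replicate 2 minus replicate 1, against mean CPM (log axis) for the 337 detected miRNA genes, with the 10 epithelial miRNAs coloured by transcript and the rest in grey. The epithelial miRNAs lie between 0.24 (Mir203) and 2.89 (Mir205), with Mir137, Mir7b and Mir449a beside them and the red blood cell Mir451a lowest at -1.39.

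Lists of miRNAs linked to other cell types moved between the libraries in differing directions, and their part in the epithelial difference was not tested. Of the ciliated epithelium list, 3 of 5 members were detected. Mir449a was higher in replicate 2, whereas Mir34c (429 and 457 CPM, 1.06-fold) and Mir34b (19.6 and 21.1 CPM, 1.07-fold) had intervals that included 1, and Mir449b and Mir449c had at most 1 count. Of the other epithelium-linked miRNAs none of 4 was 2-fold higher, with Mir31 at 1.14-fold, Mir224 at 1.12-fold, Mir34a at 0.947-fold and Mir184 at 0.809-fold. Summed, the ciliated epithelium list reached 464 and 520 CPM and the other list 718 and 754 CPM.

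Of the neural list, 6 of 12 measured members were detected. Of these, 2 were higher in replicate 2, Mir137 and Mir219a-1 (1.06-fold, with an interval of 0.62 to 1.80 that included 1). The defining neural miRNAs Mir124a-1, Mir124a-2, Mir124a-3, Mir9-2 and Mir9-3 had 0 counts in both. All 5 share a stretch of 20 bases with another annotated hairpin, and the counts leave out reads with several mapping places, so these zeros set no limit on the level of miR-124 or miR-9. The endocrine and pancreas list summed to 50.4 and 74.2 CPM, with Mir216a, Mir216b and Mir217 at no more than 2 counts. Of its detected members 3 of 3 were higher, but the interval of Mir7-1 (1.07-fold, 0.84 to 1.35) included 1. The liver and gut list summed to 518 and 471 CPM, with 3 of 5 detected members higher, each with an interval that included 1. For comparison, 59.6% of all detected genes were higher in replicate 2. The skeletal muscle list summed to 17.8 and 38.0 CPM and was mostly Mir206.

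Blood miRNAs went the other way. The red blood list summed to 1184 and then 489 CPM, with both of its members lower, and the white blood list was at 493 and 405 CPM, with 1 of 3 detected members higher. The lists of the main heart cell types moved less, with ratios of 1.05 for heart muscle, 1.07 for endothelial, 1.35 for smooth muscle and 0.974 for fibroblast and mesenchymal miRNAs, against 1.78 (1.70 to 1.86) for the sum of the 10 epithelial miRNAs. Only the skeletal muscle list had a larger ratio, 2.14 (1.61 to 2.85), among the 12 other lists.

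**Figure D5:**
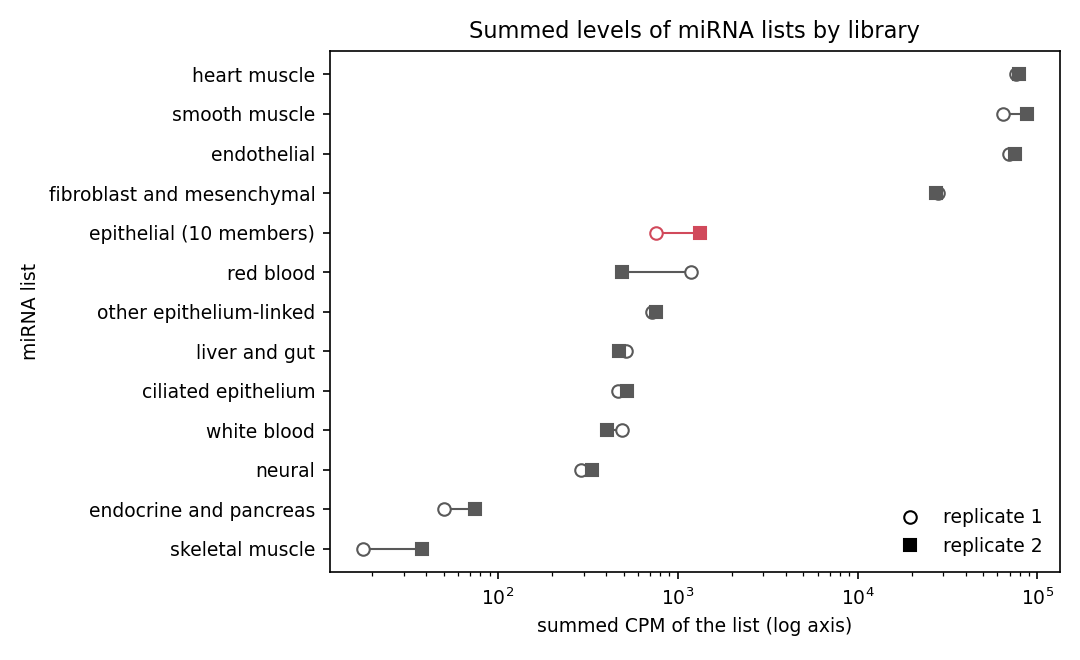
Summed CPM (log axis) of 13 lists of miRNAs in replicate 1 (open circles) and replicate 2 (filled squares), with the 10 epithelial miRNAs in red. The epithelial sum (753 and 1339 CPM) lies below the heart muscle, smooth muscle, endothelial and fibroblast lists and above the skeletal muscle list in both libraries, and the red blood list (1184 and 489 CPM) moves the opposite way.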

How the data were processed

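The deposited tables hold whole-number read counts per miRNA gene, 1 table per library without pooling, on genome build mm10 with GENCODE M4 per the file descriptions deposited with them. With aligner and counting program not given in the sources used here, the deposited counts were taken as unnormalized, being whole numbers with unequal totals. Of the 3 count columns (both strands and each alone), the strand column holding 95.3% and 95.4% of gene reads was used. The 4 lines that name no gene, 46.9% and 47.2% of reads, were left out. Symbols, coordinates and overlaps came from GENCODE M21 on the same assembly (1894 of 1973 identifiers named), and sequences from RefSeq.

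Counts were scaled to CPM, with 1 CPM added before taking log2. Detection meant at least 10 counts in each library. With 1 group there was no test between groups. Ratios have exact conditional binomial intervals, levels exact Poisson intervals and shares Clopper-Pearson intervals. The ratio and its interval were tested on simulated Poisson counts, the model that the interval assumes. Genes with counts as low as those of Mir141 were left out of that simulation. Named were the 10 members, leading members of 12 other lists, non-members with a log2 difference at or above the members' median, and non-members nearest in level. Mir1a-1, Mir133a-1, Mir133a-2, Mir449b, Mir449c, Mir34b, Mir184, Mir34a, Mir219a-1, Mir206, Mir375, Mir451a and the zero-count neural genes were named after their values were seen. Members and lists were chosen with earlier results of these data known. Alternatives used edgeR 4.0.16 (TMM) and DESeq2 1.42.0 (size factors) in R 4.3.3. Other steps used Python 3.11.15, pandas 2.3.3 and scipy 1.17.1.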

Additional observations from a re-analysis of the deposited data

Results flagged for a closer look

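Reads on the strand opposite Mir203 numbered 24 in replicate 1 and 18 in replicate 2, above the 3 counts that a count of 0 allows, in a column that the comparisons above do not use. They made up 2.43% and 1.75% of the reads on either strand of this locus, against 4.72% and 4.58% of the pooled reads of all genes. Over the 10 members together the shares were 0.942% and 0.445%. In replicate 1 Mir200a (7.14%, 5 reads) and Mir205 (3.77%, 2 reads) had larger shares than Mir203. RefSeq places the mature miRNAs miR-203b-3p (chromosome 12, 112130887 to 112130908) and miR-203b-5p (112130927 to 112130946) on that strand. The other 9 members had at most 5 opposite-strand reads in a library.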

How the results depend on the processing

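Of 30 recomputed values of the main results, 24 moved by less than the SD of the 2 libraries, the counting interval or, for counts, 1.5 times. These bounds are wide. With 2 libraries, leaving out 1 always moves a level or pair difference by less than their SD. Those recomputed values therefore counted as unmoved by construction. The summed level was 753 to 1339 CPM when either replicate was left out, and 554 CPM when scaled to all reads. The count of 7 members at least 2-fold higher in replicate 2 became 3 with a 3-fold threshold, 3 among members with at least 100 counts in each library and 3 when the lower counting bound had to reach 2-fold. It was 9 with a 1.5-fold threshold, 6 with TMM scaling or unstranded counts and 5 with median-of-ratios scaling. It became 3 of 5 when transcripts were counted in place of members, an alternative chosen after seeing the data. Of the 10 members, 6 had at least 100 counts in each library. The median log2 difference lay between 0.85 (pseudocount of 10 CPM) and 1.19 (0.1 CPM). Of 175 recomputed values of single members and pairs, 160 moved by less than the same bounds, including all those with a replicate left out. Of the log2 ratios and pair differences 0 changed sign, and levels cannot do so. Leaving out a replicate moved the level of 7 of 10 members by over 1.5 times, most for Mir205, at 11.8 CPM without replicate 2 and 93.8 without replicate 1 against 52.8 CPM. No paired analysis was possible because the series has 1 group. Depth limits Mir141 most, at 20 counts in replicate 1.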
